A study of Mus musculus with 2 samples.

Results

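The 45 genes described here are the DEAD and DEAH box RNA helicases in the count table of a bone marrow RNA-seq study, out of 12860 listed genes. They were chosen by symbol, as all genes named Ddx or Dhx followed by a number (51), less 6 symbols: the X- and Y-linked Ddx3x and Ddx3y, and 4 further genes, most of them interferon-induced RNA sensors, which are not used here. Of the 45, 30 are Ddx genes and 15 are Dhx genes. The rule uses no expression value. By Entrez number 0 of the 45 lie on chromosome X or Y of the mouse reference.

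RNA was taken from unsorted whole bone marrow of 1 mouse per group. The P95H mouse carried the Srsf2 P95H knock-in on 1 allele with R26CreERT2, a tamoxifen-dependent Cre recombinase expressed from the widely active Rosa26 locus, and was a C57BL/6 female of 14 weeks. The WT mouse had both normal Srsf2 alleles and the same R26CreERT2, and was a C57BL/6 male of 12 weeks. Both mice received tamoxifen in vivo, for a time not given in the sources used here. Srsf2 encodes a splicing factor that binds exonic enhancers, and the comparison asks what its mutant form does to marrow transcripts. Genotype, sex, age and individual cannot be told apart with 1 library per group, so no difference has a replicate check and no p-value is given.

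DEAD and DEAH box proteins use ATP to unwind short RNA duplexes or to pull proteins off RNA. Most large rearrangements of the spliceosome are driven by such helicases, and ribosome assembly in the nucleolus uses many more of them. Other members act in mRNA export, translation, decay of mRNA and sensing of viral RNA. The family takes its name from an ATP-binding stretch of 4 codons for aspartate, glutamate, a variable residue (mostly alanine) and then aspartate (DEAD) or histidine (DEAH).

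That stretch was found in the coding sequence of 44 of the 45 members. The 10 sequences below show how the genes described most fully differ there. Each is 30 bases of the coding strand, 5′ to 3′, from GENCODE M21 transcripts (GRCm38), with the 4 codons of the box in capitals.
Ddx5: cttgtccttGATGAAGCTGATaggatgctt
Ddx46: gttgttttaGATGAAGCAGACagaatgttt
Ddx39b: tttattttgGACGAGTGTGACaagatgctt
Ddx39: tttgtgctaGATGAATGTGACaagatgctg
Ddx19a: tttgttctgGACGAGGCTGATgtgatgata
Ddx19b: tttgttctgGACGAGGCTGATgtgatgata
Ddx28: atagtgctaGATGAAGTAGACacactgcta
Dhx15: ataattcttGATGAGGCCCATgaaagaaca
Dhx38: gtcatcatgGATGAGGCCCACgagcgctcc
Dhx9: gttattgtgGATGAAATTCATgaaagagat
All 10 windows are coding and lie within 1 exon each, at these GRCm38 positions. On the minus strand, Dhx38 has its window at chr8:109556056-109556085 (exon 14 of 27), Ddx28 at chr8:106010549-106010578 (exon 1 of 1), Ddx19a at chr8:110979077-110979106 (exon 8 of 12) and Ddx19b at chr8:111011326-111011355 (exon 8 of 12). Also on the minus strand are those of Ddx5 at chr11:106785184-106785213 (exon 7 of 13), Dhx15 at chr5:52171487-52171516 (exon 4 of 14) and Dhx9 at chr1:153468880-153468909 (exon 14 of 28). On the plus strand are those of Ddx46 at chr13:55660749-55660778 (exon 13 of 23), Ddx39b at chr17:35247081-35247110 (exon 5 of 11) and Ddx39 at chr8:83721101-83721130 (exon 5 of 11). Of 30 Ddx genes, 29 had GAC or GAT as the last codon of the box and 1, Ddx11, had CAC. All 14 Dhx genes with a box had CAC or CAT there. The codon before it was GCN in 32 genes and another one in 12, among them TGT in both Ddx39 genes, GTA in Ddx28 and ATT in Dhx9. No box was found in Dhx32 by this search. Ddx19a and Ddx19b had the same 30 bases, and of 990 pairs of members they were the pair that shared exact stretches of the read length of 75 bases, amounting to 27.5% of such stretches in Ddx19a transcripts and 10.2% in Ddx19b transcripts. Counting could have moved reads between these 2 genes.

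Counts over the listed genes came to 42366695 for P95H and 44733445 for WT. CPM stands for the deposited normalised read count. A difference below is log2(CPM + 1) in P95H marrow less that in WT marrow, a scale that makes the differences of low genes look smaller. A ratio is that of the CPM values, followed by its 95% interval for counting error alone. Markers of marrow cell types differed between the libraries. Of 15 neutrophil markers, the 14 measured summed to 110136 CPM in P95H marrow and 56800 in WT marrow (median difference 0.92), the 15 B cell markers to 387 and 1286 CPM (-1.75), 14 of 16 erythroid markers to 9219 and 15594 CPM (-0.52), and the 12 T and natural killer cell markers to 22.7 and 50.7 CPM (-0.77). None of these markers was at 0. All listed genes have a CPM above 1 in at least 1 library. Of the T and natural killer cell markers, 7 had a CPM of at least 1 in both libraries, with a median of -0.45. The others (Prf1, Eomes, Klrb1c, Ncr1 and Cd3e) are listed through their WT value alone, so their direction was fixed. The 16 genes of dividing cells summed to 6469 CPM in P95H marrow and 6755 CPM in WT marrow (median -0.04). In bulk RNA, fewer cells of a type and less RNA per cell cannot be told apart, and the part of these markers' cells in the helicase values was not tested.

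Helicase transcripts were at nearly the same level in both libraries. Of 45 members, 0 were at least 2-fold higher or lower in P95H marrow, where 3.86% of all genes were (1.76% higher, 2.10% lower). At that share a list of 45 would hold few or none, so this count alone does not set the members apart. The smaller size of 1.5-fold was reached by 2 members, Ddx28 on the higher side and Dhx32 on the lower, against 15.1% of all genes (7.05% higher, 8.08% lower). Differences ran from -0.66 (Dhx32) to 0.65 (Ddx28), with quartiles of -0.15 and 0.14, where those of all genes were -0.23 and 0.22. Most members are well expressed, 43 of 45 reaching 10 CPM in P95H or WT marrow, and the 8481 genes at that level had quartiles of -0.15 and 0.25 and a median of 0.04. The median size of the difference, without its sign, was 0.15 over the members, 0.21 over the genes at that level and 0.23 over all genes. The size of the difference was under 0.25 in 34 of 45 members and in 53.4% of all genes. The median over the members was -0.09 and over all genes 0.00, with 16 members above 0 and 29 below (49.7% and 50.3% of all genes). Together the members took 0.448% of P95H counts (exact interval 0.446 to 0.450) and 0.490% of WT counts (0.488 to 0.492), while their summed CPM was 4777 in P95H marrow and 4577 in WT marrow, a ratio of 1.04.

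**Figure D1:**
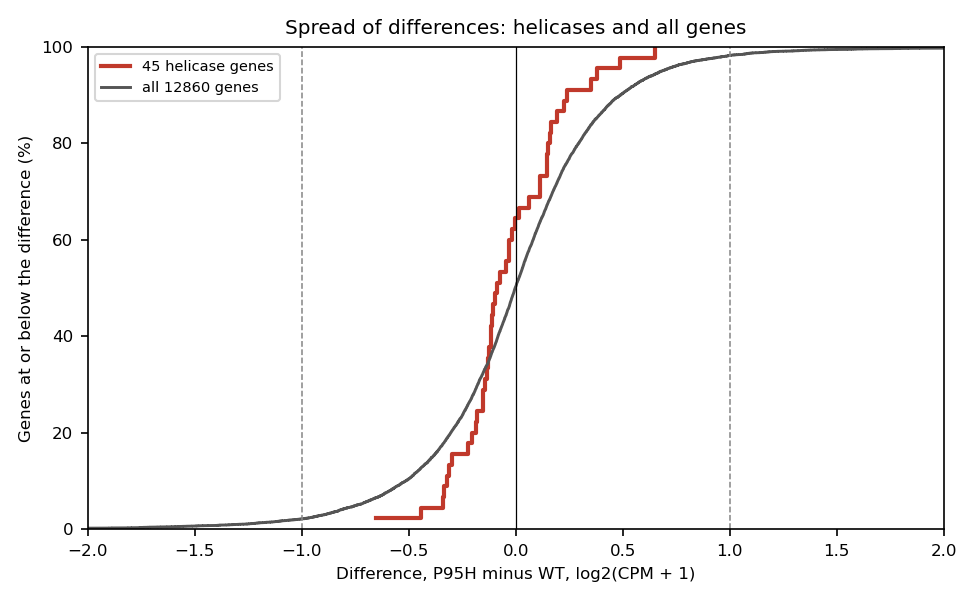
Cumulative share of genes (vertical axis, percent) at or below each difference between the libraries (horizontal axis, P95H minus WT on log2(CPM + 1)), for the 45 helicase genes and for all 12860 genes, with dashed lines at 2-fold. The helicase curve is steeper, runs from -0.66 to 0.65 and stays inside both dashed lines.

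Counting error was small beside many of these differences. The interval of the ratio lay wholly above 1 in 14 members and wholly below 1 in 18, 71.1% together, where it did so for 34.1% and 32.8% of all genes (66.9%). These shares describe the 2 libraries and carry no spread between mice. The 18 members, and the 29 below 0, include Ddx4, which is listed through its WT value alone, so its direction was fixed. The sign of a small difference also depends on how the libraries are scaled. With library sizes taken as plain totals of listed counts, which lower the median of all genes by 0.18, 7 members lay above 0 and 38 below. The 9 members that turned from above to below 0 were Dhx36, Ddx39b, Ddx51, Ddx19b, Ddx52, Ddx1, Ddx5, Ddx21 and Dhx15. Relative to the median of all genes, the members' median was -0.09 under either scaling. A change of library sizes shifts nearly all genes alike, so this could hardly differ. Trimmed totals, which leave out the haemoglobin genes and the top 20 genes by CPM of each library, gave 12 members above 0 and 33 below. They put the median of all genes at -0.13. With either of these totals most listed genes thus also lay below 0, and their share was not counted. The same limit holds for all later counts above and below 0 with these totals. Ddx28, Dhx38, Dhx40, Ddx6, Dhx37, Dhx29 and Ddx49 lay above 0 under all 3 scalings.

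**Figure D2:**
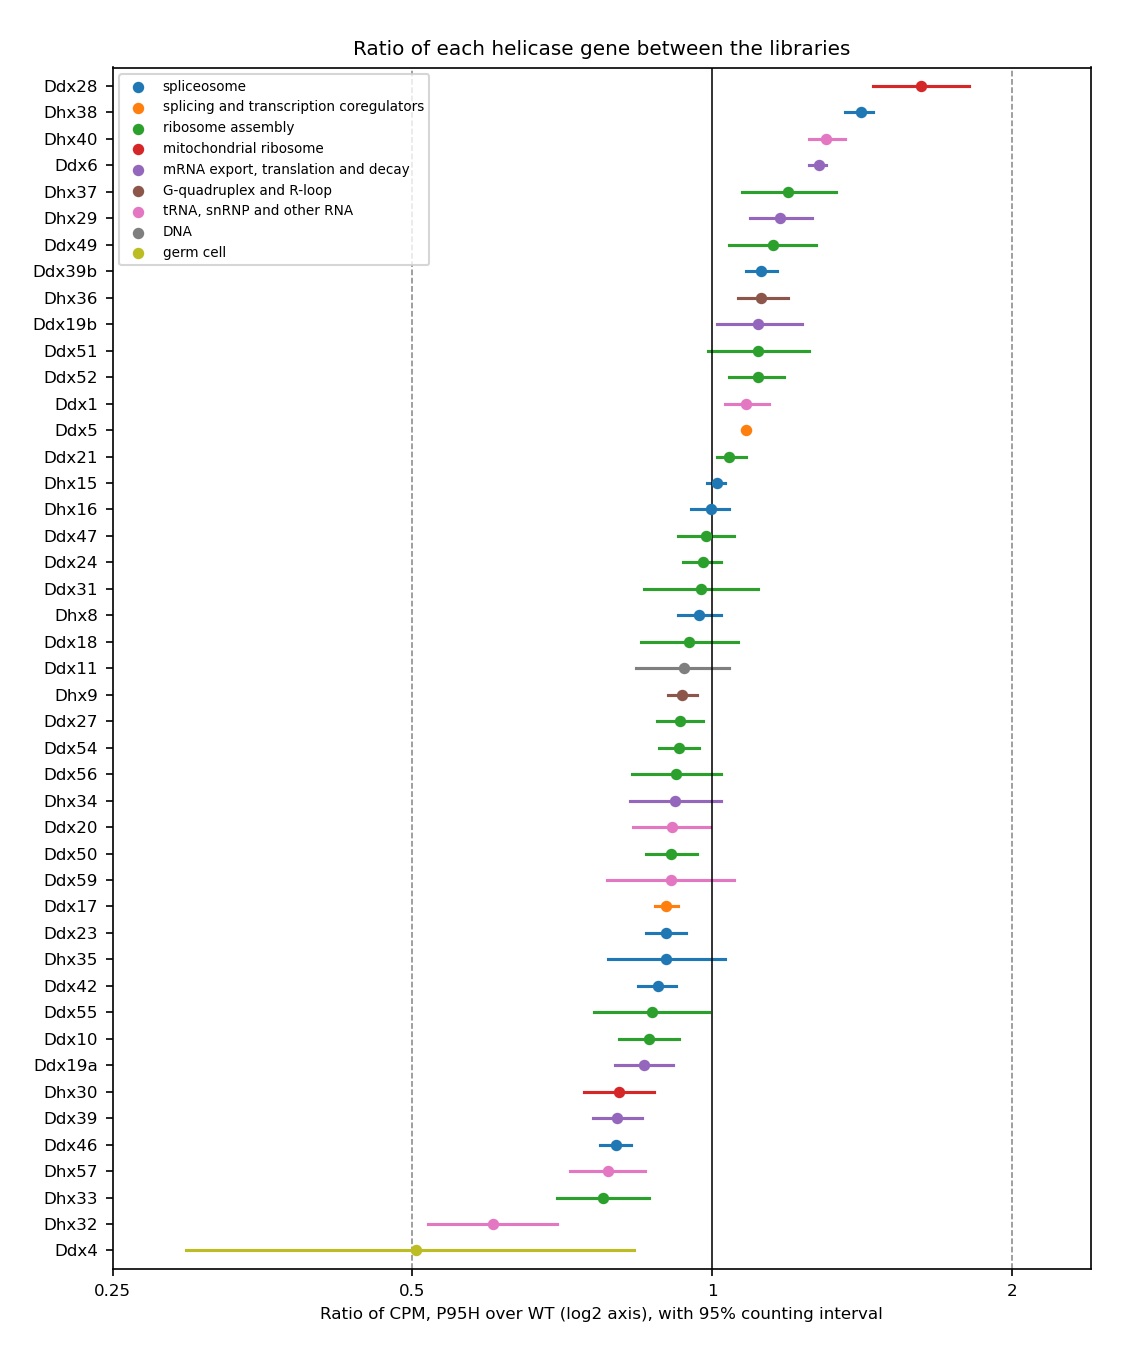
Ratio of CPM, P95H over WT, for each of the 45 helicase genes (log2 axis), with its 95% counting interval as a line, coloured by role and ordered from high to low. Dashed lines mark 2-fold. All ratios lie between them, from 0.504 (Ddx4) to 1.62 (Ddx28). The interval of Ddx4, which rests on few reads and is listed through its WT value alone, crosses the lower line.

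The 9 helicases of the spliceosome had a median difference of -0.05, with 3 above 0 and 6 below (1 and 8 with plain totals). At 1.5-fold there were 0 of the 9, against 15.1% of all genes, a share at which so short a list would hold few. In the order in which the proteins act, Ddx39b and Ddx46 help the U2 particle to join the branch site. Ddx39b (Entrez 53817), which also loads the mRNA export complex, had 6544 counts (165 CPM) in P95H marrow and 7062 counts (147 CPM) in WT marrow, a ratio of 1.12 (1.08 to 1.16). Ddx46 (Entrez 212880), the counterpart of yeast Prp5, had 5078 counts (128 CPM) in P95H marrow against 7658 (160 CPM) in WT marrow, a ratio of 0.800 (0.772 to 0.829). Ddx46 was the lowest of the 9 in P95H relative to WT marrow.

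Ddx42, a partner of the SF3B complex in human cells, had 3620 counts (91.2 CPM) in P95H marrow and 4958 counts (104 CPM) in WT marrow, and a ratio of 0.881 (0.843 to 0.919). Ddx23, the counterpart of yeast Prp28 that lets U6 take the place of U1 at the 5′ splice site, had 3198 counts (80.6 CPM) in P95H marrow and 4296 counts (89.7 CPM) in WT marrow, a ratio of 0.898 (0.857 to 0.940). The intervals of Ddx42 and Ddx23 lay below 1, as that of Ddx46 did, while that of Ddx39b lay above it. Dhx16, the counterpart of yeast Prp2 that readies the spliceosome for the first cut, had 3205 counts (80.7 CPM) in P95H marrow and 3878 counts (81.0 CPM) in WT marrow, a ratio of 0.997 (0.951 to 1.04).

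Dhx38 (Entrez 64340), the counterpart of yeast Prp16 that remodels the spliceosome between the cuts, stood highest. It had 7730 counts (195 CPM) in P95H marrow against 6630 counts (138 CPM) in WT marrow, a difference of 0.49 and a ratio of 1.41 (1.36 to 1.45). It was 1 of 4 members with more raw counts in the P95H library, which held fewer reads in all. Its difference was 0.30 with plain totals.

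Dhx8, the counterpart of yeast Prp22 that releases the spliced mRNA, had 2980 counts (75.1 CPM) in P95H marrow and 3710 counts (77.5 CPM) in WT marrow, and a ratio of 0.969 (0.923 to 1.02). Dhx15, the counterpart of yeast Prp43 that takes the spent spliceosome apart, had 12623 counts (318 CPM) in P95H marrow and 15068 counts (315 CPM) in WT marrow, a ratio of 1.01 (0.987 to 1.03). The interval of each held 1. Dhx35, found in the human catalytic spliceosome, had the fewest reads of the 9, with 390 counts (9.82 CPM) in P95H marrow and 524 (10.9 CPM) in WT marrow, a ratio of 0.898 (0.785 to 1.03).

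The balance of members inside 1 library does not depend on the scaling between libraries. Dhx38 had 1.52 counts for each count of Ddx46 in P95H marrow and 0.866 in WT marrow, a 1.76-fold shift (1.67 to 1.85). Against Dhx16 the count ratio was 2.41 in P95H marrow and 1.71 in WT marrow (1.41-fold, 1.33 to 1.49), against Dhx8 2.59 and 1.79 (1.45-fold, 1.37 to 1.54), and against Dhx15 0.612 and 0.440 (1.39-fold, 1.34 to 1.45). These pairs were picked with the values of Dhx38 known.

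**Figure D3:**
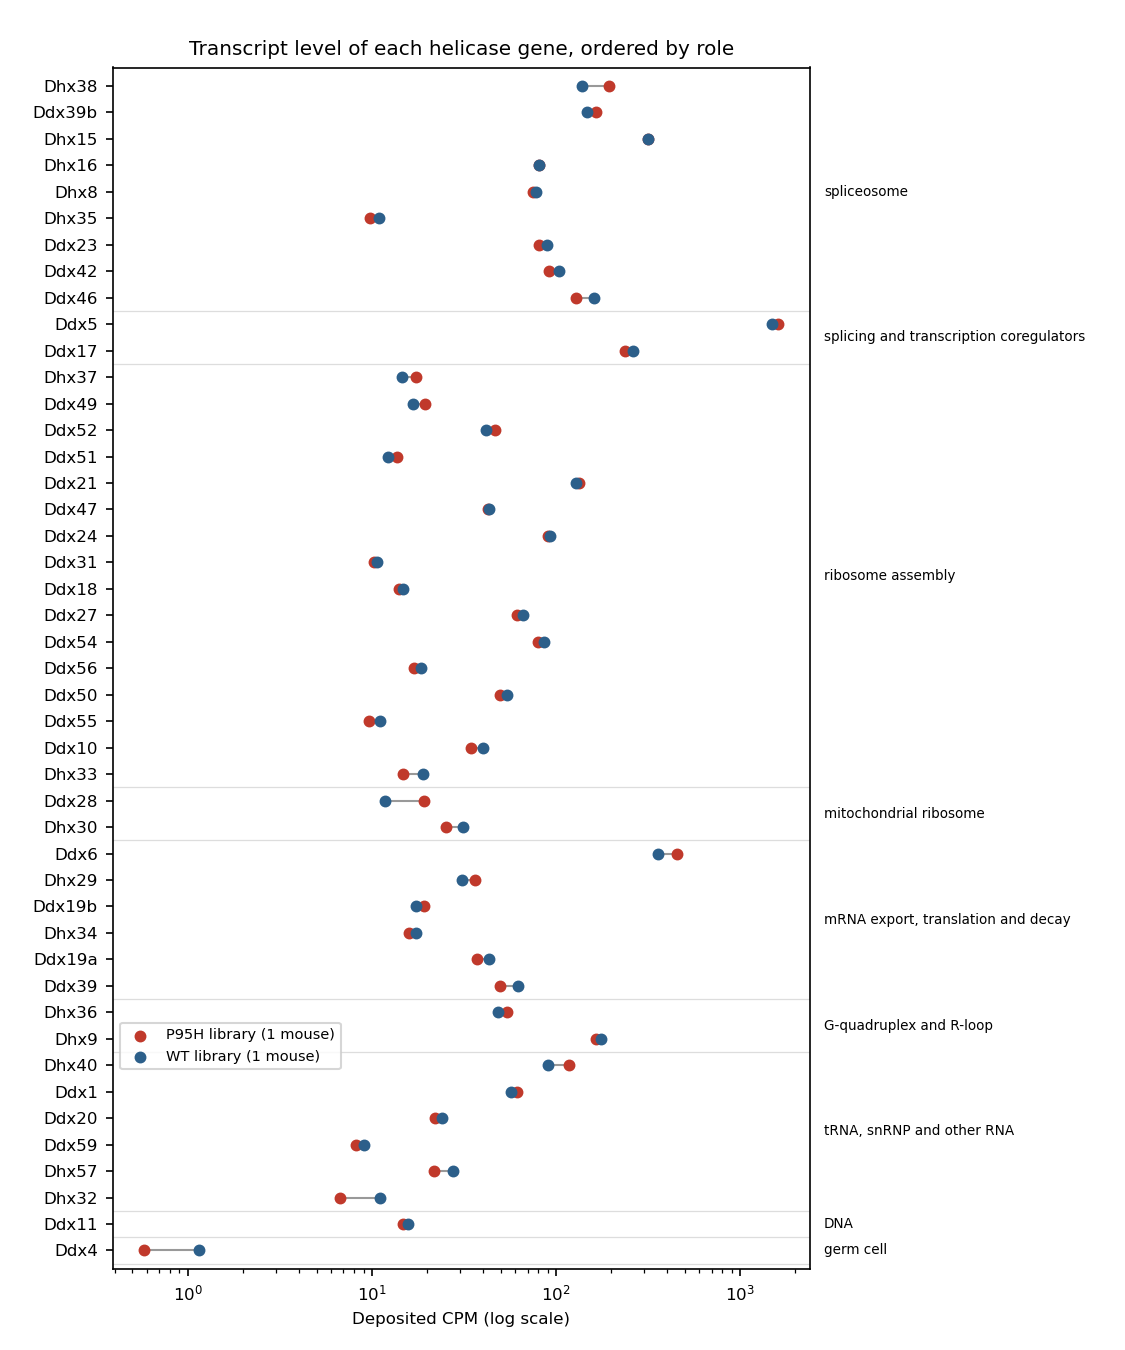
Deposited CPM (log axis) of each helicase gene for the P95H and the WT library, 1 mouse each, grouped by role and ordered within a role by the ratio. CPM is not corrected for gene length, so points compare libraries within a gene. The widest gaps are those of Ddx4, Dhx32 and Ddx28, and Ddx4 is listed through its WT value alone.

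Ddx5 (p68) and Ddx17 (p72) are close relatives that act in transcription and in the choice of splice sites, and Ddx5 held more reads than any other member. Ddx5 (Entrez 13207) had 64014 counts (1613 CPM) in P95H marrow and 71291 counts (1489 CPM) in WT marrow, a ratio of 1.08 (1.07 to 1.09). It took 33.8% of the members' counts in P95H marrow and 32.5% in WT marrow. Ddx17 had 9388 counts (236 CPM) in P95H marrow and 12594 counts (263 CPM) in WT marrow, a ratio of 0.899 (0.875 to 0.924). The genes lay on either side of 1, and within a library the count ratio of Ddx5 to Ddx17 was 6.82 in P95H marrow and 5.66 in WT marrow (1.20-fold, 1.17 to 1.24). With plain totals Ddx5 was also below 0, at -0.08.

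Per kilobase of exon, the order of the members was largely the same in both libraries. Ddx5 led with 453 CPM per kb in P95H marrow and 418 in WT marrow, above 99.1% of the genes with a known length in each. Dhx15 (95.8 and 94.8), Ddx6 (75.1 and 58.8) and Ddx39b (55.3 and 49.5) came next in P95H and WT marrow alike. Dhx38 was the fifth in P95H marrow at 43.6 CPM per kb and the seventh in WT marrow at 31.0. Dhx9 was the sixth with 35.7 in P95H marrow and the fifth with 38.2 in WT marrow. Of the 45 members, 30 were above the median gene in P95H marrow and 28 in WT marrow, 13 kept their exact rank, and the largest move was 7 ranks. With 1 library per group, neighbours in this order cannot be said to differ beyond the spread between mice.

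The 16 helicases of ribosome assembly had a median of -0.05, with 5 above 0 and 11 below (2 and 14 with plain totals). At 1.5-fold there were 0 of the 16, against 15.1% of all genes, a share at which a list of 16 would hold few. These helicases lay between -0.34 (Dhx33) and 0.24 (Dhx37). Their summed CPM was 655 in P95H marrow and 670 in WT marrow, a ratio of 0.977. The subunit on which each acts is known mainly from its yeast counterpart.

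Of 5 helicases of the small subunit, 3 lay above 0, or 2 with plain totals (this split by subunit was made with the values known). Dhx37, which frees the U3 small nucleolar RNA from the pre-ribosome, had 688 counts (17.3 CPM) in P95H marrow and 696 counts (14.5 CPM) in WT marrow, a ratio of 1.19 (1.07 to 1.33). Ddx49 was at 0.19 with 19.3 CPM in P95H marrow and 16.7 CPM in WT marrow, Ddx52 at 0.15 with 46.5 CPM in P95H marrow and 41.8 CPM in WT marrow, and Ddx47 at -0.02 with 42.8 and 43.4 CPM. Ddx10 had 1369 counts (34.5 CPM) in P95H marrow and 1913 counts (40.0 CPM) in WT marrow, a ratio of 0.863 (0.805 to 0.926). Exons of Ddx49 overlap those of Homer3 on the opposite strand over 40.9% of their length. Homer3 had 121 counts in P95H marrow and 183 in WT marrow, against 765 and 801 for Ddx49, and no source used here says whether counting used strand.

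Of 7 helicases of the large subunit, 6 lay below 0, between -0.03 and -0.19, and Ddx51 was at 0.14, or below 0 with plain totals. Ddx55 was the lowest, with 381 counts (9.60 CPM) in P95H marrow and 529 counts (11.0 CPM) in WT marrow, a ratio of 0.869 (0.760 to 0.993). Ddx27 had 61.1 CPM in P95H marrow and 65.9 CPM in WT marrow, and Ddx54 had 79.6 and 86.1 CPM, both with intervals below 1. The intervals of Ddx24, Ddx31, Ddx51 and Ddx56 held 1, with ratios between 0.919 (Ddx56) and 1.11 (Ddx51).

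Among the other nucleolar members, Dhx33, which promotes transcription of ribosomal DNA, had 584 counts (14.7 CPM) in P95H marrow and 906 counts (18.9 CPM) in WT marrow, a ratio of 0.777 (0.699 to 0.864). Ddx21, an RNA helicase of ribosomal RNA transcription and processing, had 5333 counts (134 CPM) in P95H marrow and 6158 counts (129 CPM) in WT marrow, a ratio of 1.04 (1.01 to 1.08). Its close relative Ddx50 had 49.5 CPM in P95H marrow and 54.4 CPM in WT marrow, a ratio of 0.909 (0.857 to 0.964). Ddx21 exceeded Ddx50 in counts by 2.72-fold in P95H marrow and 2.36-fold in WT marrow (1.15-fold, 1.07 to 1.23). Ddx18 had 14.1 CPM in P95H marrow and 14.8 CPM in WT marrow, with 1 inside the interval of its ratio.

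The 2 helicases of the mitochondrial ribosome lay apart from each other. Ddx28 (Entrez 71986), needed for the large mitochondrial subunit in human cells, had 758 counts (19.1 CPM) in P95H marrow and 565 counts (11.8 CPM) in WT marrow, a difference of 0.65 and a ratio of 1.62 (1.45 to 1.81). Dhx30, which works in the same mitochondrial RNA granules, had 1004 counts (25.3 CPM) in P95H marrow against 1502 counts (31.4 CPM) in WT marrow, a ratio of 0.806 (0.744 to 0.874). Ddx28 had 0.755 counts per count of Dhx30 in P95H marrow and 0.376 in WT marrow, a 2.01-fold shift (1.75 to 2.30). Ddx28 and Dus2 overlap on opposite strands over 3.18% of the exons of Ddx28, and Dus2 lay the other way, with 240 counts in P95H marrow and 448 in WT marrow. The difference of Ddx28 was 0.47 with plain totals and 0.53 with trimmed totals, both under 1.5-fold.

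Helicases of mRNA export, translation and decay diverged, with 3 of 6 above 0, or 2 with plain totals. Ddx6 (Entrez 13209), which represses translation and aids decapping in P-bodies, had 18092 counts (456 CPM) in P95H marrow and 17088 counts (357 CPM) in WT marrow, a ratio of 1.28 (1.25 to 1.30). Dhx29, which helps initiation on mRNA with structured leaders, had 1444 counts (36.4 CPM) in P95H marrow and 1484 counts (31.0 CPM) in WT marrow, a ratio of 1.17 (1.09 to 1.26). Dhx34, a factor of nonsense-mediated decay, had 15.9 CPM in P95H marrow and 17.3 CPM in WT marrow, a ratio of 0.918 with 1 inside its interval.

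The export helicase Ddx39, a close relative of Ddx39b, had 1982 counts (49.9 CPM) in P95H marrow and 2980 counts (62.2 CPM) in WT marrow, a ratio of 0.802 (0.758 to 0.849). Ddx39b and Ddx39 lay on opposite sides of 1 with the deposited CPM, and both below 1 with plain totals, while their count ratio within a library was 3.30 in P95H marrow and 2.37 in WT marrow (1.39-fold, 1.30 to 1.49). Exons of Ddx39 overlap those of the abundant gene Adgre5 on the opposite strand over 18.5% of their length, and Adgre5 had a ratio of 1.03 (1.01 to 1.05). Ddx19a and Ddx19b release mRNA from export factors at the nuclear pore. Ddx19a had 1474 counts (37.1 CPM) in P95H marrow and 2083 counts (43.5 CPM) in WT marrow, and Ddx19b had 764 counts (19.2 CPM) and 828 counts (17.3 CPM). Their count ratio was 1.93 in P95H marrow and 2.52 in WT marrow (0.767-fold, 0.680 to 0.865). These genes share read-length sequence, and their boxes are identical, so both values are uncertain.

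**Figure D4:**
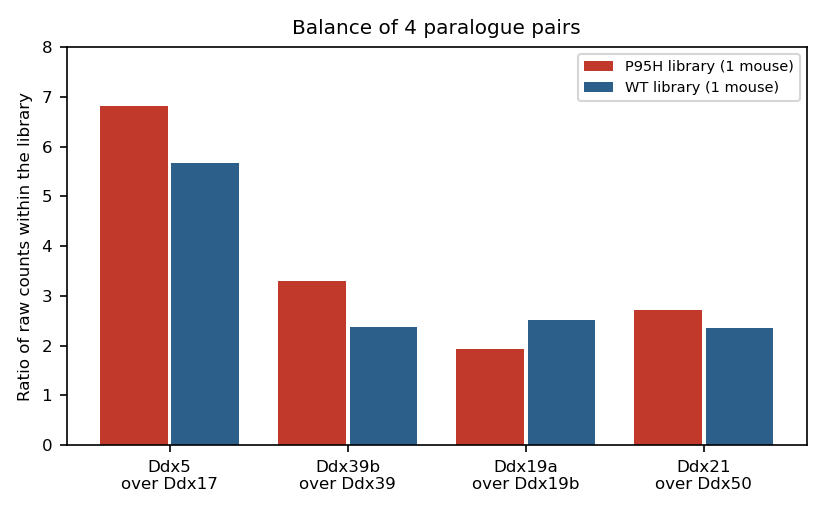
Ratio of raw counts between the members of 4 paralogue pairs (vertical axis, starting at 0), for the P95H and the WT library, 1 mouse each. The ratio is higher in P95H for Ddx5 over Ddx17 (6.82 and 5.66), Ddx39b over Ddx39 (3.30 and 2.37) and Ddx21 over Ddx50 (2.72 and 2.36), and lower for Ddx19a over Ddx19b (1.93 and 2.52).

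The 8 members with a reported part in sensing viral nucleic acid or in its control had a median of 0.04, against -0.15 for plain totals and -0.10 for trimmed totals. All 8 also have roles given elsewhere, and the 4 genes that are not used here include the family's known interferon-induced sensors. Of the 8, 5 lay above 0 and 3 below (1 and 7 with plain totals). At 1.5-fold there were 0 of the 8, against 15.1% of all genes, a share at which so short a list would hold few. Ddx1, Ddx21 and Dhx36 form a complex that detects double-stranded RNA in mouse dendritic cells. Ddx1, also a subunit of the tRNA ligase, had 2440 counts (61.5 CPM) in P95H marrow and 2716 counts (56.7 CPM) in WT marrow, a ratio of 1.08 (1.03 to 1.14). Dhx36, which unwinds G-quadruplexes, had 2152 counts (54.2 CPM) in P95H marrow against 2314 counts (48.3 CPM) in WT marrow, a ratio of 1.12 (1.06 to 1.19). With Ddx21, the ratios of the complex lay between 1.04 and 1.12, and each difference was below 0 with plain totals.

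Dhx9 (RNA helicase A), which resolves R-loops and is a reported sensor in dendritic cells, had 6536 counts (165 CPM) in P95H marrow and 8448 counts (176 CPM) in WT marrow, a ratio of 0.933 (0.903 to 0.964). Ddx24, reported to dampen RNA sensing, had 3585 counts (90.3 CPM) in P95H marrow and 4422 counts (92.4 CPM) in WT marrow, a ratio of 0.978 (0.935 to 1.02). Dhx29, reported as a co-sensor of viral RNA in human cells, was at 0.22, and Dhx33, reported to activate the inflammasome in human macrophages, was at -0.34. Dhx15, a partner of the mitochondrial antiviral adaptor, was at 0.01. These 8 genes are measured in all marrow cells together, so their level in sensing cells is not known.

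The remaining members included the lowest difference of the family. Dhx32 (Entrez 101437) had 266 counts (6.70 CPM) in P95H marrow and 533 counts (11.1 CPM) in WT marrow, a difference of -0.66 and a ratio of 0.602 (0.518 to 0.699). The B cell markers, the mixed list of T and natural killer cell markers and the erythroid markers were also lower in P95H marrow (medians -1.75, -0.77 and -0.52). In the mixed list, 6 of 12 (Prf1, Eomes, Gzma, Klrb1c, Tcf7 and Ncr1) were at least 2-fold lower, down to -1.76, against 2.10% of all genes. Cd8a, Lck, Cd4, Cd3e, Cd3d and Cd3g lay between -0.55 and -0.28. Prf1, Eomes, Klrb1c, Ncr1 and Cd3e had a CPM below 1 in P95H marrow and are listed through their WT value alone, so their direction was fixed. The 7 markers of this list with a CPM of at least 1 in both libraries had a median of -0.45. The part of the cells of any marker list in the value of Dhx32 was not tested. Dhx32 overlaps Bccip on the opposite strand over 6.77% of its exons, and Bccip had a ratio of 0.871 (0.804 to 0.943). Dhx40 had 4679 counts (118 CPM) in P95H marrow and 4325 counts (90.3 CPM) in WT marrow, a ratio of 1.30 (1.25 to 1.36). Dhx57 lay on the other side, with 857 counts (21.6 CPM) in P95H marrow and 1317 counts (27.5 CPM) in WT marrow, a ratio of 0.785 (0.719 to 0.856).

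Ddx20 (Gemin3), a subunit of the SMN complex that builds spliceosomal particles, had 21.9 CPM in P95H marrow and 24.0 CPM in WT marrow, a ratio of 0.910 (0.833 to 0.995). Ddx59 had 8.21 CPM in P95H marrow and 9.04 CPM in WT marrow, and the DNA helicase Ddx11, which acts in sister chromatid cohesion, had 14.7 and 15.7 CPM, with 1 inside both intervals. The germ cell helicase Ddx4 was near the lower limit of the table, with 23 counts (0.579 CPM) in P95H marrow and 55 counts (1.15 CPM) in WT marrow, a ratio of 0.504 (0.296 to 0.834). As all 12860 listed genes have a CPM above 1 in at least 1 library, Ddx4 is listed through its WT value alone, so that limit fixed the direction of its difference.

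Genes that work beside the family were described by the same measures. The 16 RNA helicases with other symbols had a median of 0.08. Of these, 1 was at least 2-fold higher in P95H marrow and 0 lower, against 1.76% and 2.10% of all genes. That gene was Mov10, an interferon-induced helicase that acts against retroelements, with 1698 counts (42.8 CPM) in P95H marrow and 998 counts (20.8 CPM) in WT marrow (ratio 2.05, 1.90 to 2.22). Its difference of 1.00 was 0.82 with plain totals and 0.88 with trimmed totals, under 2-fold in each. Skiv2l, the helicase of the cytosolic exosome's Ski complex, was at 0.29 and the microRNA-processing enzyme Dicer1 at -0.22. The U5 helicase Snrnp200 and the exon junction helicase Eif4a3 had 263 and 116 CPM in P95H marrow, against 247 and 109 CPM in WT marrow.

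Over all genes 3.86% reached 2-fold, a share at which lists of 22, 25 and 39 genes would hold few or none. Of 22 spliceosome proteins that work with the helicases, 0 reached 2-fold in either direction. Their median was 0.05, with Bud13 at 0.37, Prpf31 at 0.34 and Prpf3 at -0.24. Of 25 helicase cofactors, mainly G-patch proteins, 0 reached 2-fold and the median was -0.02, with Nkrf at -0.47, Zgpat at -0.36 and Cmtr1 at 0.26. Of 39 measured ribosome assembly factors, 0 reached 2-fold and the median was -0.08, with 13 above 0 and 26 below (5 and 34 with plain totals). Rrp12, a factor of ribosome export, was at 0.55, the RNA polymerase I subunit Polr1a at 0.53 and Noc3l at -0.46. The medians of the other helicases and of the spliceosome proteins were below 0 with plain totals, at -0.11 and -0.14, and with trimmed totals, at -0.05 and -0.09.

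**Figure D5:**
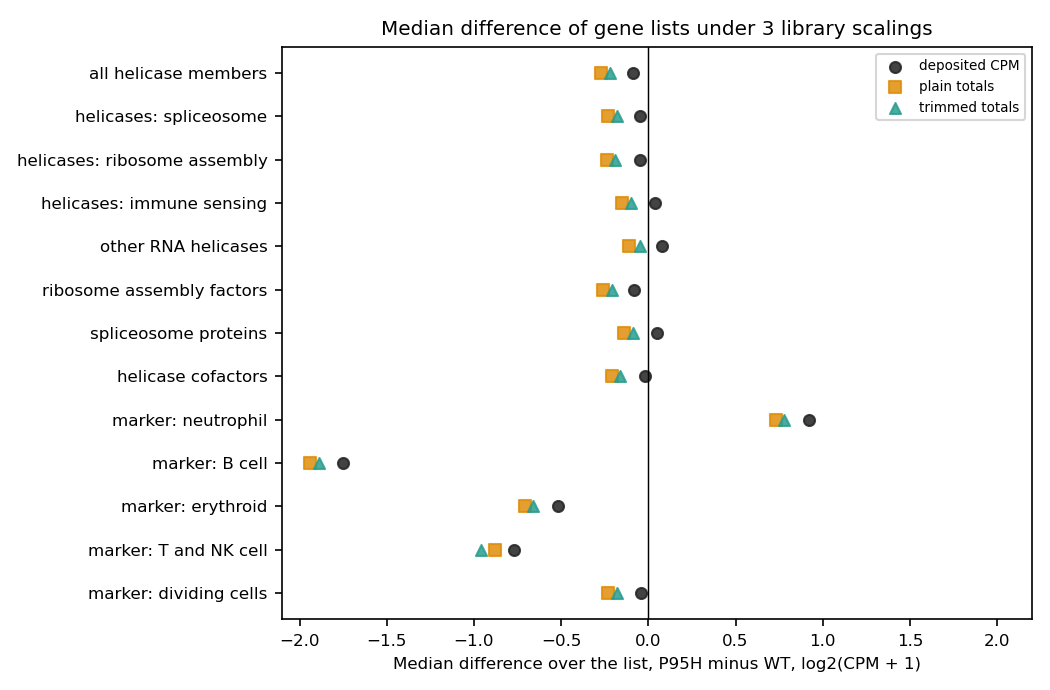
Median difference (horizontal axis, P95H minus WT on log2(CPM + 1)) of the helicase family and its main role lists, of partner lists and of cell type marker lists, under the deposited CPM, plain totals and trimmed totals. The family as a whole, its spliceosome, ribosome assembly and immune sensing lists and the partner lists, which are the ones drawn, stay between -0.27 and 0.08, while neutrophil markers lie at 0.73 to 0.92 and B cell markers at -1.94 to -1.75.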

How the data were processed

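Per the labels' protocols, ribosome-depleted total RNA of whole marrow went into a Kapa stranded kit (9 PCR cycles) and was read on 1 NextSeq500 run (paired, 75 bp). Tools named in the submitters' processing notes, with no roles, are featureCounts, edgeR, Picard 1.96, STAR 2.5.3a, cutadapt and Trim Galore, with mm9 as the build. Strand setting and treatment of multi-mapping reads are not given in the sources used here.

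Raw counts per gene are as the authors deposited them. The deposited CPM is a normalised signal whose columns sum to 1067265 (P95H) and 934268 (WT), equal to counts over effective library sizes of 39696495 and 47880724. Differences used log2(CPM + 1), and calls a size of 2-fold or 1.5-fold on that scale. Ratio intervals are exact conditional binomial intervals and shares have exact Clopper-Pearson intervals at 95%. The labels name no molecular identifiers, so all intervals cover counting error only. Intervals of count ratios between members are conditional odds ratio intervals.

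Exon lengths, overlaps and sequences came from GENCODE M21 (GRCm38) by Entrez number, with lengths for 92.7% of genes. All 45 members matched the reference. The box was searched in the longest coding sequence, as the first codons for a hydrophobic pair, aspartate, glutamate, any residue, and aspartate or histidine after the ATP-binding loop. The members, the lists of roles, partners and markers, the pairs and the rule for named genes were chosen with earlier results of these data known. The rule names all members and, from each partner list, up to 3 genes with the largest differences. Overlapping genes, Snrnp200 and Eif4a3 were added with their values known.

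Alternatives were pseudocounts of 0.1 and 5, plain totals, median centring, trimmed totals (no haemoglobin genes and none of the 20 most abundant in each library), TMM factors (edgeR 4.0.16), filters at a CPM of 10 in 1 library or 1 in both, counting intervals beyond the fold, and means. The 2-fold call and the ratio intervals were tested on counts simulated with counting error alone. Other steps were not tested in this way. Python 3.11.15, scipy 1.17.1 and R 4.3.3 were used.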

Additional observations from a re-analysis of the deposited data

How the results depend on the processing

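The count of 0 members at 2-fold was also 0 under all 9 alternatives tried, but most of them could hardly raise it. Filters and a pseudocount of 5 can only lower such a count. All ratios lay inside 2-fold, so the interval rule could not raise it. Nor could a pseudocount of 0.1, since any pseudocount pulls a ratio towards 1. The median of all genes was already 0.00 before centring, and TMM sizes (39699164 and 47739247) were close to those of the deposited CPM. The count could have changed only with plain totals and trimmed totals. At 1.5-fold the main count of 2 members was 0 with a pseudocount of 5 and 0 with counting intervals wholly beyond 1.5-fold, 1 with plain totals, 1 with trimmed totals (no haemoglobin, no top genes) and 3 with a pseudocount of 0.1. The members' median of -0.09 came to -0.27 for plain totals and -0.22 for trimmed totals, and in that order -0.23 and -0.18 for spliceosome helicases, -0.24 and -0.19 for ribosome assembly helicases, and -0.15 and -0.10 for immune sensing helicases, whose sign changed. These scalings put the median of all genes at -0.18 and -0.13, and relative to it the members' median was -0.09 in each. Rescaling shifts nearly all genes alike, so that relative value is no check. The other alternatives moved these 4 medians by less than the median counting error of the list's members. Over single members, a move was counted when it exceeded the distance from the middle of the log2 counting interval to its end. Plain totals moved 39 of 45 differences by this rule and changed the sign of 9, and trimmed totals moved 29 and changed the sign of 4. With plain totals, 134 genes were at least 2-fold higher and 463 lower in P95H marrow, against 226 and 270 with the deposited CPM. No paired analysis was possible because there is 1 library per group. Leaving out a library was not possible for the same reason, so no alternative here measures the spread between mice. Depth limited the low genes most, such as Ddx4 with 23 and 55 counts.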
